A study of Mus musculus with 42 samples.

Results

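The liver transcripts of 10 mouse apolipoprotein genes were examined, namely Apoa1, Apoa2, Apoa4, Apoa5, Apob, Apoc1, Apoc2, Apoc3, Apoe and Apom, out of 54446 genes in the count table. They were chosen by name. Livers were taken after 32 weeks from 42 APOE*3-Leiden mice, all female, and the polyadenylated RNA of each mouse was sequenced as 1 library. The chow group (n=10) stayed on a maintenance diet as a healthy reference. The WTD group (n=16) was 8 to 14 weeks old when it started on a Western-type diet with 15% cocoa butter, 40.5% sucrose and 1% cholesterol, which began with 3 weeks of run-in before week 0. The atorvastatin group (n=16) was of the same age at that start and received the same diet. Atorvastatin was mixed in at 3.0 mg/kg/day from week 0 and at 4.5 mg/kg/day from week 5. From week 22 the diet of both WTD-fed groups also held 0.05% sodium cholate, which the chow did not. The contrast with chow therefore spans the diet and the cholate together, and these cannot be told apart. The age of the chow-fed mice is not given in the sources used here, so a difference in age cannot be set apart either. The same holds for the number series of the mice, which was AZ# for all chow-fed mice and Gen# for all WTD-fed mice. All 3 groups carried the human transgenes APOE*3-Leiden, a variant of APOE that binds lipoprotein receptors poorly, and APOC1. These transgenes have no row of their own in a count table made on the mouse annotation. Whether some of their reads were counted on mouse Apoe or Apoc1 was not tested.

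Apolipoproteins are the protein part of lipoproteins, the particles that carry lipids in plasma, and hepatocytes make most of them. ApoB forms the scaffold of VLDL and stays with the particle until it is taken up as LDL, whereas ApoA1 and ApoA2 are the main proteins of HDL and ApoM carries sphingosine-1-phosphate on it. ApoE is a ligand for the uptake of remnant particles by hepatic receptors. ApoC2 activates lipoprotein lipase, ApoC3 and ApoC1 slow the clearance of triglyceride-rich particles, and ApoA5 promotes it. ApoA4 is made mainly by the intestine and is found on chylomicrons and HDL, and in mice the liver makes it too.

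Of the 10 genes, 7 lie in a pair of clusters. In GRCm38, Apoa1 (46228580 to 46230466, plus strand), Apoc3 (46232933 to 46235636, minus strand), Apoa4 (46240696 to 46243459, plus strand) and Apoa5 (46268633 to 46271919, plus strand) share 43.3 kb of chromosome 9. Apoc2 (19671579 to 19677941), Apoc1 (19689481 to 19692660) and Apoe (19696109 to 19699188) share 27.6 kb of chromosome 7, all on the minus strand. Apoa2 lies on chromosome 1 (171225054 to 171226379, plus strand), Apob on chromosome 12 (7977648 to 8016835, plus strand) and Apom on chromosome 17 (35128997 to 35132050, minus strand). The bases before the starts of the 3 plus-strand genes of the chromosome 9 cluster are shown because their transcripts, although made by neighbours, did not move alike with the diet. They were taken from the RefSeq windows of GRCm38.p6, from 250 bases before the RefSeq start up to whichever of the RefSeq and GENCODE starts came earlier. The GENCODE start lay 50 bases before the RefSeq start in Apoa1 and 148 bases before it in Apoa4. Capitals mark TATAAA, the core of a TATA box.
Apoa1 upstream, chr9:46228380-46228579, plus strand: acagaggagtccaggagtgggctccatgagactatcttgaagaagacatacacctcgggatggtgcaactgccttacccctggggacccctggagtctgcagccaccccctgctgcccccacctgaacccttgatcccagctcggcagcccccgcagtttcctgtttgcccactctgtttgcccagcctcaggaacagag
Apoa4 upstream, chr9:46240594-46240695, plus strand: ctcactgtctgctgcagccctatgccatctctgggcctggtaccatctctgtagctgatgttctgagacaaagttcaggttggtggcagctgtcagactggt
Apoa5 upstream, chr9:46268383-46268632, plus strand: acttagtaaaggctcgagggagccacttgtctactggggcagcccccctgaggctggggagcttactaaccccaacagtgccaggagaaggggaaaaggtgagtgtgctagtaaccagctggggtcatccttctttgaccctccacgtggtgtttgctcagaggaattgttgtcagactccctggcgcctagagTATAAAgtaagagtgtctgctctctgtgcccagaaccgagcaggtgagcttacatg

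Windows of 250 bases were found for 8 of the 10 genes, all but Apoc1 and Apoc3, and were searched on both strands for exact letters. They end at the RefSeq start. The GENCODE start lay 249 bases before it in Apom, 148 in Apoa4, 50 in Apoa1 and 29 in Apob. These bases lie within the GENCODE gene, and in Apom they are nearly the whole window. The absence of a motif from that window is not read as absence upstream of Apom. TATAAA was present in 3 of the 8 windows, as against 13% of 27025 mouse promoter windows of the same length. It lay 51 to 56 bases before the RefSeq start of Apoa5, 55 to 60 bases before that of Apob and 207 to 212 bases before that of Apoa2. AGGTCA, a half-site of nuclear receptors, was found in the window of Apoc2 alone and in 13.8% of all windows. CCAAT was found in Apoa2 alone and in 34.5% of all windows, and CAAAGTCCA, a form of the HNF4 site, in 0 of the 8 windows and in 0.381% of all.

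The libraries held 15661381 to 36224054 counted read pairs. Levels are given as CPM, the counts of a gene relative to the size of its library, scaled between libraries with TMM, the composition scaling of edgeR. In 9 libraries (3 chow, 5 WTD and 1 atorvastatin) over 20% of the genes at 1 to 2 CPM had no count at all. The members are far more abundant than that, apart from Apoc2, and without these libraries the number of members that passed the test was the same in each comparison (9, 2 and 7). Of all 15799 genes tested without these libraries, 5873, 1664 and 4581 passed, in the same order. In bulk tissue, fewer hepatocytes and less RNA per hepatocyte cannot be told apart.

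Apoe was the most abundant of these transcripts and ranked 2 among all genes by mean CPM in each group. Apoa1 ranked 4 on chow and 7 in both WTD-fed groups, and Apoa2 ranked 13 on chow, 28 on WTD and 31 with atorvastatin. Apom was the least abundant member with counts, at ranks 944, 1913 and 1398. Compared per kilobase of exon, the mean level in chow-fed mice was 18116 ± 1565 CPM per kb for Apoe (SD, n=10). It was 10506 ± 1713.5 for Apoa2, 9778 ± 1805 for Apoa1, 2677.5 ± 474.1 for Apoc1 and 1686 ± 289.9 for Apoc3. The lowest were Apoa5 at 570.4 ± 111.3, Apoa4 at 230.7 ± 82.9, Apob at 226.9 ± 25.0 and Apom at 165.9 ± 41.5 CPM per kb. Some neighbours in this order did not differ beyond their spread. Apoa2 was above Apoa1 in 7 of 10 mice, and Apoa4 was above Apob in 3 of 10. In WTD-fed mice Apoa1 came before Apoa2 (5568 and 4502 CPM per kb, Apoa1 higher in 14 of 16 mice) and Apoa4 before Apoa5 (491.2 and 359.8 CPM per kb, Apoa4 higher in 14 of 16 mice). With atorvastatin Apoa4 and Apoa5 stood at 499.4 and 488.5 CPM per kb, with Apoa4 higher in 8 of 16 mice, so these neighbours had no order.

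Apoc2 was listed at 0 counts in all 42 mice, and no level is given for it. In GENCODE vM21, used here, 79.5% of its exon bases are shared with Gm44805 (chromosome 7, 19671584 to 19681423). Gm44805 is a protein-coding gene on the same strand and was also listed at 0. The paper counted reads on an earlier GENCODE release, in which this overlap was not checked. HTSeq counts a read pair that touches 2 genes for neither, and such ambiguous pairs were 5.43 to 6.57% of all pairs per mouse. Apoc4, the next gene of this cluster, was listed at 0 too, and it shares 4.7% of its exon bases with Gm44805. How far the overlap accounts for these values was not tested, and the 0 is not read as absence of the transcript. The other 9 genes had at least 1099 counts in every mouse.

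The 10 genes together took 5.77 ± 0.417% of the counts on chow (mean ± SD, n=10), 5.11 ± 0.365% on WTD (n=16) and 4.55 ± 0.439% with atorvastatin (n=16). Apoe alone made up 3.42 ± 0.269%, 3.39 ± 0.26% and 2.89 ± 0.278%, and the other genes 2.35 ± 0.251%, 1.72 ± 0.151% and 1.67 ± 0.249%. These shares are a description and were not tested.

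The comparison of WTD-fed with chow-fed mice asks how the hepatic transcripts differed between these groups, with the limits given above. All 9 members that could be tested passed the threshold (edgeR quasi-likelihood test, Benjamini-Hochberg adjusted p under 0.01 over 15574 genes). Of these, 8 were lower and 1, Apoa4, was higher on WTD. Of all genes tested, 33.5% passed in either direction, 16% lower and 17.5% higher. The median log2 fold change of the members was -0.71 and that of all genes 0.03.

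Among the HDL genes, Apoa1 ranged from 9221 to 15058 CPM on chow (median 11790.5) and from 5552 to 8691 CPM on WTD (median 6907). The groups did not overlap, and Apoa1 was 1.76-fold lower on WTD (log2 fold change -0.81, SE 0.11, adjusted p 1.2e-08 in edgeR). Apoa2 ranged from 4037 to 6591 CPM on chow (median 5926) and from 1699 to 3431 CPM on WTD (median 2397). Here too each WTD-fed mouse was below each chow-fed mouse, by 2.33-fold on average (log2 fold change -1.22, SE 0.12, adjusted p 6.8e-12). Apom ranged from 119.3 to 249.0 CPM on chow (median 165.6) and from 62.4 to 108.2 CPM on WTD (median 75.8). Its log2 fold change was -1.11 (SE 0.11, adjusted p 1.3e-12), again without overlap.

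**Figure D1:**
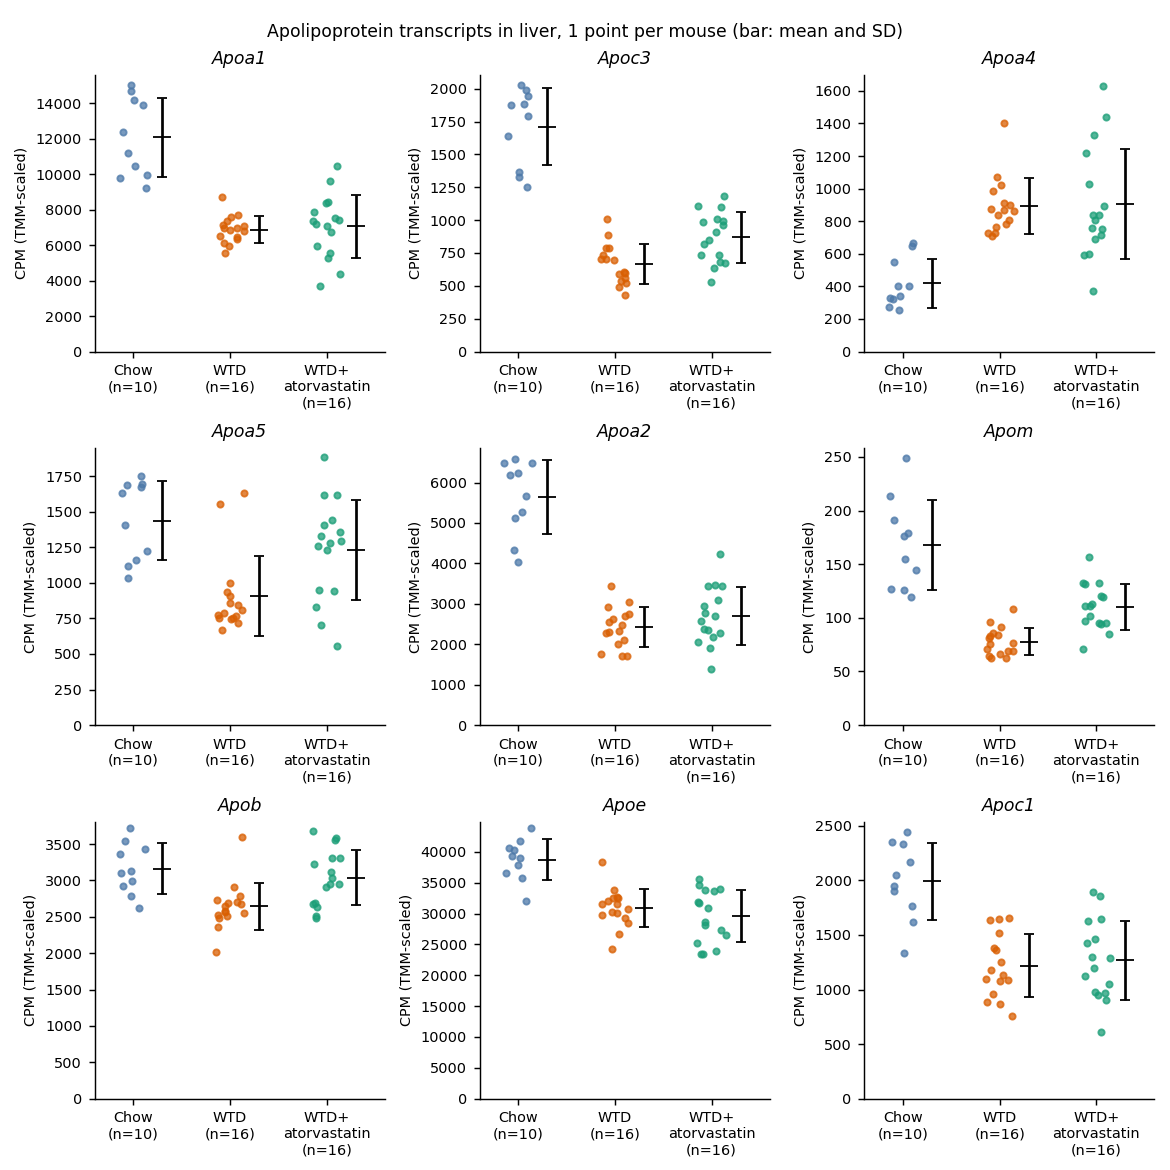
TMM-scaled CPM (vertical axes, from 0) of the 9 apolipoprotein genes with counts, with 1 point per mouse in the chow, WTD and WTD with atorvastatin groups and the mean and SD beside each group. Apoa1, Apoc3, Apoa2 and Apom of WTD-fed mice lie below all chow-fed mice, and Apoa4 lies above all of them.

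In the chromosome 9 cluster, Apoc3 showed the largest decrease of all members and Apoa4 the only increase. Apoc3 ranged from 1249.5 to 2028 CPM on chow (median 1833) and from 431.7 to 1007 CPM on WTD (median 650.2). It was 2.57-fold lower on WTD, without overlap (log2 fold change -1.36, SE 0.12, adjusted p 5.5e-14). Apoa4 ranged from 254.5 to 667.9 CPM on chow (median 370.4) and from 710.7 to 1401 CPM on WTD (median 867.0). Every WTD-fed mouse was above every chow-fed mouse, and the difference was 2.13-fold (log2 fold change 1.09, SE 0.18, adjusted p 2.7e-06). Apoa5 ranged from 1032 to 1753 CPM on chow (median 1521) and from 666.2 to 1636 CPM on WTD (median 798.0). In 14 of 16 WTD-fed mice it was below all chow-fed mice, and the other two, Gen#19 and Gen#20, had 1559 and 1636 CPM, above the chow median. Its log2 fold change was -0.66 (SE 0.15, adjusted p 3.2e-04). The genes whose groups did not overlap were thus 4 lower (Apoa1, Apoa2, Apoc3 and Apom) and 1 higher (Apoa4). Among all tested genes 5.83% had groups that did not overlap, 2.43% lower and 3.4% higher.

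Apob, Apoe and Apoc1 differed with overlap between the groups. Apob ranged from 2625 to 3723 CPM on chow (median 3118) and from 2014 to 3604 CPM on WTD (median 2618). The difference was small (log2 fold change -0.26, SE 0.07, adjusted p 0.0035), and without the chow-fed mouse AZ#4, which had the highest Apob of its group, the adjusted p was 0.012. Apoe ranged from 32040.0 to 43892 CPM on chow (median 39220.4) and from 24196 to 38346 CPM on WTD (median 31152). It was 1.25-fold lower on WTD (log2 fold change -0.33, SE 0.07, adjusted p 2.6e-04), with 11 of 16 WTD-fed mice below all chow-fed mice. Apoc1, its neighbour, ranged from 1338 to 2447 CPM on chow (median 1999.6) and from 754.7 to 1658 CPM on WTD (median 1153). Its log2 fold change was -0.71 (SE 0.14, adjusted p 3.5e-05).

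How far the smaller of these differences are decreases depends on the scale. With libraries scaled to their total counts, an alternative that was added after seeing the data, the median of all genes rose by 0.34 on the log2 scale on WTD. On that scale the log2 fold change was -0.01 for Apoe (adjusted p 0.85), 0.05 for Apob (adjusted p 0.47) and -0.37 for Apoa5 (adjusted p 0.016), and the other 6 genes kept their direction and passed the test. Of all 15574 genes, 6249 passed by total counts, as compared to 5224 with TMM. Relative to the median of all genes, the values on that scale were -0.35 for Apoe, -0.29 for Apob and -0.71 for Apoa5. The share of all counts on Apoe was 3.42% on chow and 3.39% on WTD, as given above, while its TMM-scaled level was lower on WTD.

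**Figure D2:**
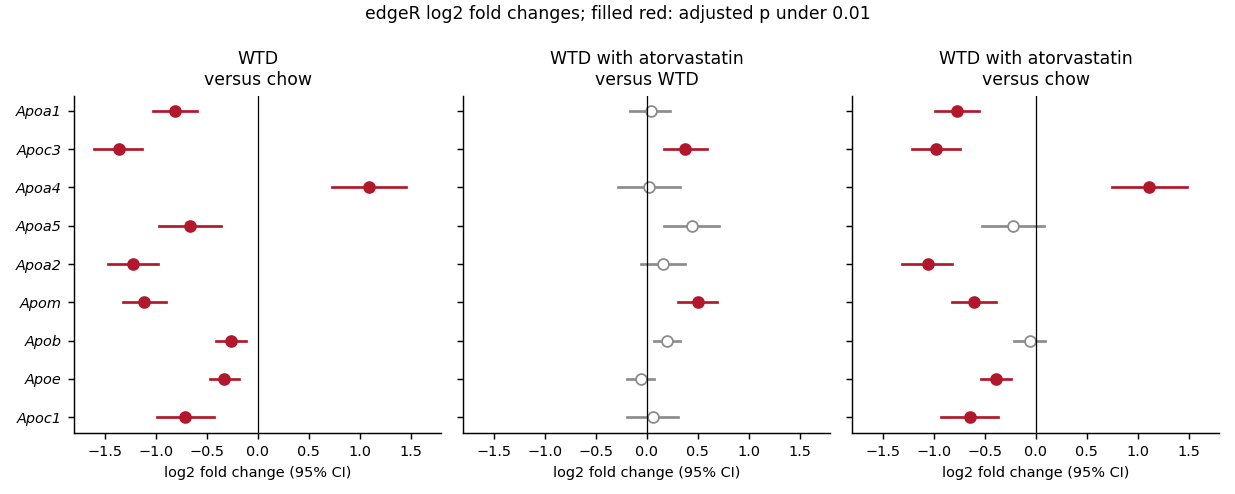
Log2 fold changes (horizontal axes) with 95% confidence intervals of the 9 tested apolipoprotein genes in the 3 comparisons, with filled red points where the adjusted p was under 0.01 and open grey points elsewhere. On WTD 8 genes lie to the left of 0 and Apoa4 to the right, and with atorvastatin only Apom and Apoc3 are filled.

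Ratios of counts within a mouse do not depend on the scaling between libraries. For each 100 counts of Apoa1, chow-fed mice had 2.28 to 5.22 counts of Apoa4 (median 3.27), WTD-fed mice 10.4 to 18.2 (median 12.7) and atorvastatin-treated mice 6.66 to 20.4 (median 11.4). All chow-fed mice were below all mice of both other groups. Per 100 counts of Apoc3, which lies between Apoa1 and Apoa4, there were 17.5 to 36.1 counts of Apoa4 on chow (median 23.1), 85.8 to 190 on WTD (median 135) and 58.5 to 180 with atorvastatin (median 90.1). Again chow stood apart from both WTD-fed groups, which overlapped. Apoc3 itself had a median of 13.9 counts per 100 of Apoa1 on chow, 9.34 on WTD and 11.9 with atorvastatin, and these ranges overlapped. Apoa5 had a median of 11.4 counts per 100 of Apoa1 on chow, 12.2 on WTD and 17.2 with atorvastatin. The atorvastatin-treated mice (13.0 to 22.5) overlapped both with WTD-fed mice (9.87 to 23.1) and with chow-fed mice (7.89 to 17.9). In the other cluster, the median of Apoc1 per 100 counts of Apoe was 5.18 on chow, 4.01 on WTD and 4.15 with atorvastatin, with overlap. These ratios are a description and were not tested.

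**Figure D3:**
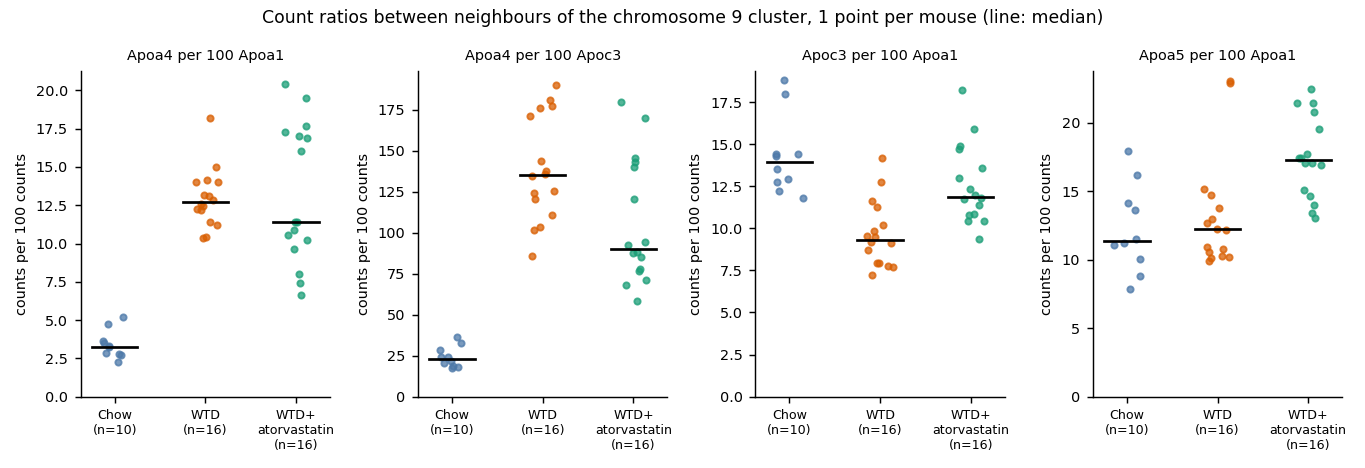
Ratios of counts between neighbours of the chromosome 9 cluster (vertical axes, counts per 100 counts of the other gene, from 0), with 1 point per mouse and a line at the median of each group. The ratio of Apoa4 to Apoa1 is 2.28 to 5.22 on chow and at least 6.66 in all other mice.

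The comparison of atorvastatin-treated with WTD-fed mice asks which of these transcripts the drug altered under the diet. It shares its WTD-fed mice with the comparison above, so the values of both comparisons are not independent of each other. Of the 9 genes tested, 2 passed the test, Apom and Apoc3, and both were higher with atorvastatin. Of all genes tested, 7.1% passed, 4.84% higher and 2.26% lower. No member had groups that did not overlap, and of all genes 0.00642% did, higher with atorvastatin. The median log2 fold change of the members was 0.16 and that of all genes 0.

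Apom ranged from 71.4 to 156.9 CPM with atorvastatin (median 110.8), as compared to 62.4 to 108.2 CPM on WTD. In 9 of 16 atorvastatin-treated mice it was above all WTD-fed mice, and it was 1.42-fold higher (log2 fold change 0.50, SE 0.10, adjusted p 1.9e-04 in edgeR). This difference passed the test under each of 11 other ways of processing and without any one of the 42 mice. Apoc3 ranged from 525.7 to 1184 CPM (median 878.8), as compared to 431.7 to 1007 CPM on WTD. It was 1.30-fold higher with overlap (log2 fold change 0.38, SE 0.10, adjusted p 0.0085). This call was close to the threshold: it held under 4 of the 11 other ways of processing (adjusted p from 3.2e-06 to 0.072) and in 22 of 42 fits with a single mouse removed (adjusted p from 0.0014 to 0.019). Under total-count scaling, where the median of all genes moved by -0.16, the log2 fold change was 0.22 for Apoc3 (adjusted p 0.072) and -0.23 for Apoe (adjusted p 3.6e-04). Apoe then passed in the place of Apoc3, so that 1 gene was higher and 1 lower. Of all 15574 genes, 1352 passed by total counts, as compared to 1106 with TMM. Relative to the median of all genes, the values by total counts were 0.38 for Apoc3 and -0.07 for Apoe.

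The other 7 genes did not pass. Apoa5 ranged from 558.3 to 1882 CPM with atorvastatin (median 1290.4), with a log2 fold change of 0.44 (SE 0.13, 95% CI 0.17 to 0.71, adjusted p 0.022), and 14 of 16 treated mice were above the WTD median. Its adjusted p was under 0.01 when any of Gen#19, Gen#20, Gen#22 or Gen#23 was left out, and was then as low as 0.0027. Apob ranged from 2488 to 3674 CPM (median 2990), with a log2 fold change of 0.20 (SE 0.07, 95% CI 0.07 to 0.33, adjusted p 0.032), and its adjusted p was 0.0035 without Gen#20. Gen#20 had the highest level of 7 of the 9 genes in the WTD group, and its library was among those that lacked over 20% of the weak genes (21.9%). The remaining genes had intervals that spanned 0. These were -0.06 to 0.38 for Apoa2 (log2 fold change 0.16), -0.16 to 0.23 for Apoa1 (0.04), -0.28 to 0.33 for Apoa4 (0.02), -0.19 to 0.31 for Apoc1 (0.06) and -0.19 to 0.07 for Apoe (-0.06). An increase of the size seen in Apom (0.50) thus lay outside each of these intervals. Smaller increases, of up to 0.38 for Apoa2 and 0.33 for Apoa4 on the log2 scale, lay within them.

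Atorvastatin-treated mice were also compared to chow-fed mice, to see which transcripts still differed from the healthy reference. This comparison shares its groups with both others. Chow-fed mice carry numbers of another series (AZ#) than both WTD-fed groups (Gen#), and what the prefixes stand for is not given in the sources used here. Of the 9 genes, 7 passed, with 6 lower and 1 higher, while 25% of all genes passed (10.7% lower and 14.2% higher). Apoa4 was 2.16-fold higher than on chow (log2 fold change 1.11, SE 0.18, adjusted p 3.3e-06). Apoa2 was 2.09-fold lower (log2 fold change -1.06, SE 0.12, adjusted p 8.2e-10) and Apoc3 was 1.97-fold lower (log2 fold change -0.98, SE 0.12, adjusted p 2.2e-09). Apoc3 was the only member whose groups did not overlap here, as was so for 4.37% of all genes (1.5% lower and 2.88% higher). The log2 fold changes of the others that passed were -0.77 for Apoa1, -0.61 for Apom, -0.65 for Apoc1 and -0.39 for Apoe. Apob (log2 fold change -0.06, 95% CI -0.21 to 0.09, adjusted p 0.59) and Apoa5 (-0.22, 95% CI -0.53 to 0.08, adjusted p 0.27) did not pass.

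Genes around the apolipoproteins were taken from 5 lists. Of 19 other apolipoproteins and HDL-associated proteins, 16 were tested, and on WTD 4 were higher and 11 lower, with a median log2 fold change of -0.84. The 3 with the smallest p were Apol9b (-1.67, adjusted p 2.1e-16), Pon1, the paraoxonase carried by HDL (-1.52, adjusted p 9.3e-16), and Apol9a (-1.35, adjusted p 1.0e-13). The 4 that were higher were Saa3 (2.08), Saa2 (2.03), Saa1 (1.69) and Clu (0.49). Saa1, Saa2 and Saa3 encode acute-phase apolipoproteins, Clu encodes clusterin, and they are named here after their values were seen. Under atorvastatin the list had 8 higher and 3 lower genes (median 0.31). Pon1 (0.59, adjusted p 7.5e-05) and Apol9b (0.59, adjusted p 1.1e-04) were higher, and Saa3 was lower (-1.08, adjusted p 1.8e-04), as were Saa2 (-0.75) and Clu (-0.24). On the scale of total counts, 4 were higher and 10 lower on WTD, and 3 higher and 4 lower with atorvastatin. The lists and markers below are given on that scale too. On it 6249 of all 15574 genes passed on WTD and 1352 with atorvastatin.

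Of 16 genes for the assembly and secretion of ApoB particles, all tested, 2 were higher and 10 lower on WTD (median -0.48). Apobec1, the enzyme that edits the Apob mRNA, was higher (1.14, adjusted p 1.4e-15), as was Sort1 (1.20, named after its value was seen). A1cf, a cofactor of that editing, was lower (-1.15, adjusted p 3.5e-12), and so was Mia3, which takes part in the export of large cargo from the endoplasmic reticulum (-0.60, adjusted p 4.3e-08). With atorvastatin 5 were higher and 1 lower (median 0.22). A1cf (0.69, adjusted p 1.5e-05), Tm6sf2, which takes part in the lipidation of VLDL (0.46, adjusted p 5.3e-04), and Mia2 (0.35, adjusted p 6.3e-04) were higher, of which Mia2 did not pass by total counts (adjusted p 0.014). The others to pass, named after their values were seen, were Mttp, which loads lipid onto ApoB (0.38, adjusted p 7.2e-04), Mia3 (0.36) and, in the opposite direction, Apobec1 (-0.31). By total counts, 3 were higher and 7 lower on WTD, and 2 higher and 1 lower with atorvastatin.

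Of 12 genes that remodel lipoproteins in plasma or load HDL, 4 were higher and 5 lower on WTD (median -0.40). Abcg1 (3.37, adjusted p 4.8e-19), which exports cholesterol to HDL, and Lpl (3.70, adjusted p 2.7e-14), the lipoprotein lipase, were higher, and Lcat, which esterifies cholesterol on HDL, was lower (-1.01, adjusted p 5.8e-13). Named after their values were seen, Pltp (1.47) and Abca1 (1.03) were also higher, and Lipc (-0.91), Lmf1 (-0.80) and Angptl4 (-1.53) were among those lower. With atorvastatin Lcat (0.42, adjusted p 4.1e-04) and Lmf1 (0.29, adjusted p 0.0081) were higher and Lpl was lower (-1.02, adjusted p 6.2e-04). Lmf1 passed under only 1 of 4 other scalings (0.13 to 0.29, adjusted p up to 0.32). By total counts, 5 were higher and 5 lower on WTD, and 1 higher and 3 lower with atorvastatin. Lpl also belongs to the list of lipid-associated macrophage markers below.

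Of 12 receptors for lipoproteins and their regulators, 3 were higher and 4 lower on WTD (median 0). Mylip, which marks lipoprotein receptors for degradation, was higher (1.54, adjusted p 6.2e-16), while Sdc1, a heparan sulfate receptor for remnants (-0.52, adjusted p 7.9e-07), was lower, but not by total counts (-0.21, adjusted p 0.024). Scarb1 (0.51) and Cd36 (0.43) were higher and Vldlr (-0.78) was lower, named after their values were seen. With atorvastatin Lrp1 had a value of 0.24 that did not pass (adjusted p 0.018). By total counts, 7 were higher and 2 lower on WTD. Their median was then 0.31, near the median of 0.34 of all genes on that scale.

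Of 24 transcription factors known to act at apolipoprotein genes, 3 were higher and 11 lower on WTD (median -0.32). The 3 with the smallest p were Srebf2 (-0.88, adjusted p 7.3e-14), the regulator of sterol synthesis, Nr1h4, the bile acid receptor (-0.84, adjusted p 3.0e-10), and Mlxipl, the carbohydrate response factor (-1.04, adjusted p 3.7e-09). The higher factors were Srebf1 (0.99), Foxo1 (0.38) and Nr2f2 (0.30), named after their values were seen. With atorvastatin Srebf2 (0.33, adjusted p 6.2e-04), Hnf4a (0.33, adjusted p 6.4e-04) and Mlxipl (0.56, adjusted p 6.9e-04) were higher. By total counts Srebf2 (0.16, adjusted p 0.089) and Hnf4a (0.17, adjusted p 0.047) did not pass. By total counts, 4 were higher and 5 lower on WTD, and 1 was higher and 1 lower with atorvastatin. Hnf4a also belongs to the hepatocyte markers below, and Creb3l3 is both in this list and in that of ApoB assembly. Stab2 is both in the receptor list and among the markers of sinusoidal endothelium. The counts of these lists are therefore not independent.

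**Figure D4:**
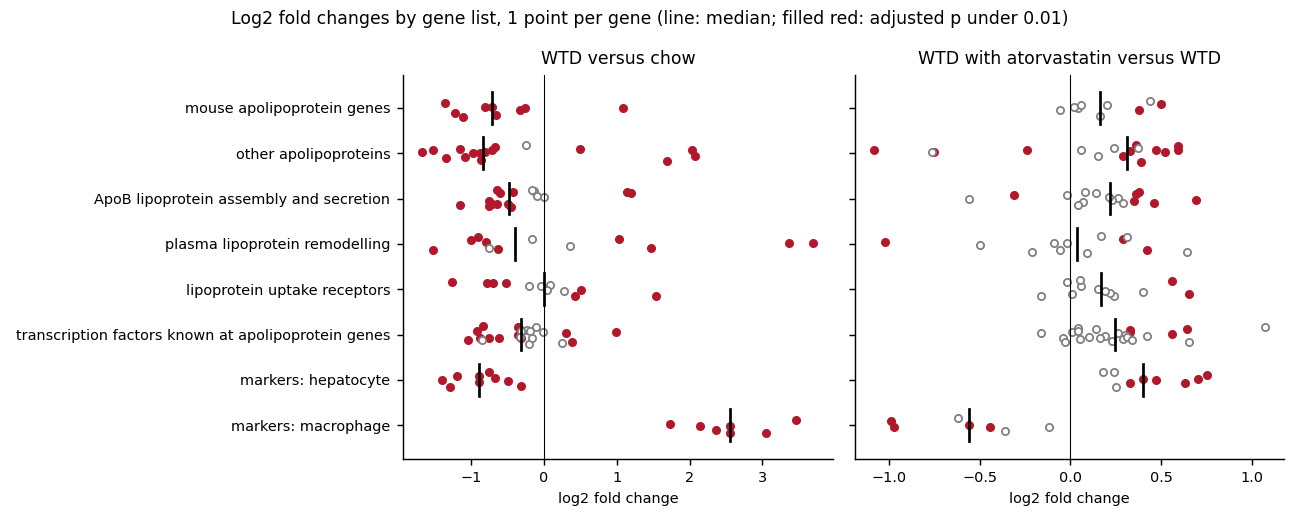
Log2 fold changes (horizontal axes) of each tested gene in the apolipoprotein set, the 5 lists of related genes and the hepatocyte and macrophage markers, on WTD versus chow (left) and with atorvastatin versus WTD (right), with a line at the median and filled red points where the adjusted p was under 0.01. The median of the apolipoprotein genes is -0.71 on the left and 0.16 on the right, that of the hepatocyte markers -0.90 and 0.40, and that of the macrophage markers 2.56 and -0.56.

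Markers of the cells of the liver also differed between the groups. The tissue was labelled as liver, and it was checked against markers of liver cells. Of 10 hepatocyte markers 9 were tested, and all 9 were lower on WTD (median -0.90), and 6 of them were higher with atorvastatin (median 0.40). Their summed level was 106501 to 157410.4 CPM on chow (median 120144), 49266 to 104106 CPM on WTD (median 65487) and 62905 to 127216 CPM with atorvastatin (median 105912). Of 8 macrophage markers 7 were tested, and all 7 were higher on WTD (median 2.56) and 4 lower with atorvastatin (median -0.56). Their summed level rose from a median of 286 CPM on chow (208 to 318) to 2026 CPM on WTD (1137 to 2563) and was 1153 CPM with atorvastatin (904 to 1813). All 7 markers of lipid-associated macrophages were higher on WTD (median 3.70), and 4 of them were lower with atorvastatin. All 6 cholangiocyte markers were higher on WTD (median 2.00), and 1 was lower with atorvastatin. Spp1 belongs to both the cholangiocyte and the lipid-associated macrophage list, so these counts are not independent. Of 10 stellate cell markers 5 were higher on WTD, and 1 was higher and 3 were lower with atorvastatin. Of 5 Kupffer cell markers 2 were higher on WTD, and 1 was higher and 1 lower with atorvastatin. Of 6 markers of sinusoidal endothelium, 1 was higher and 3 were lower on WTD, and 2 were higher with atorvastatin. Neutrophil markers were tested in 2 of 5 genes, both higher on WTD, and T cell and B cell markers, with summed levels of at most 19.5 and 54.8 CPM per mouse, did not pass. Enterocytes also make Apoa4, Apoa1 and Apob, and Sis, Alpi and Lct, which define them, were too low to test, while Vil1 (1.87, SE 0.70, adjusted p 0.024) and Fabp2 (0.47, SE 0.18, adjusted p 0.027) had higher values on WTD that did not pass. By total counts both passed as higher on WTD (median 1.48). By total counts, 6 hepatocyte markers were lower and 8 stellate cell markers higher on WTD, and for sinusoidal endothelium the balance turned to 3 higher and 1 lower. The macrophage, lipid-associated macrophage and cholangiocyte markers were again all higher (7, 7 and 6), with 3 Kupffer cell markers, 2 neutrophil markers and 1 T cell marker. With atorvastatin, 4 hepatocyte markers and 1 endothelial marker were then higher, and 5 macrophage, 5 lipid-associated macrophage, 4 stellate cell, 1 Kupffer cell and 1 cholangiocyte markers lower. The part of these cell populations in the apolipoprotein differences was not tested.

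The levels of the members were also compared across the mice of each group, in 36 pairs of genes per group and 108 in all, with Pearson's r and Spearman's rho of log2 CPM and permutation tests (100000 permutations, two-sided). A pair passed where both p values, adjusted over the 108 pairs, were under 0.05. Of the 36 pairs, 3 passed on chow, 6 on WTD and 22 with atorvastatin, all with positive r, and the median r was 0.34, 0.32 and 0.68. The share of other gene pairs that pass is not given here, so these counts are not read as particular to the apolipoproteins. Outside the set, Sod1, the gene most like Apoa2 among 10931 genes, had r of 0.93, 0.86 and 0.95 with Apoa2. The pairs among Apoa2, Apoc1 and Apoc3 passed in all 3 groups. For Apoa2 and Apoc1, r was 0.95 on chow (rho 0.95, permutation p 1.0e-04, adjusted p 0.0013), 0.92 on WTD (rho 0.91, adjusted p 5.4e-04) and 0.88 with atorvastatin (rho 0.80, adjusted p 9.0e-04), and without the 2 mice farthest from the median of Apoa2 it was 0.84, 0.88 and 0.75. For Apoa2 and Apoc3, r was 0.93, 0.89 and 0.92 (rho 0.82, 0.85 and 0.95), and 0.82, 0.82 and 0.94 without these mice. For Apoc1 and Apoc3, r was 0.83, 0.81 and 0.78 (rho 0.81, 0.74 and 0.74), and 0.54, 0.70 and 0.66 without the 2 mice farthest from the median of Apoc1. These transcripts are short, with 537, 744 and 1014 exon bases. Apom, with 1013, was in none of the pairs that passed on chow or WTD. With atorvastatin Apom passed with Apoa1 (r 0.82), Apoa2 (r 0.84), Apoa5 (r 0.71), Apob (r 0.67) and Apoc3 (r 0.76). Whether transcript length plays a part was not tested.

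On WTD the other pairs that passed joined Apoe with Apoa2 (r 0.64), with Apoa5 (r 0.69) and with Apoc3 (r 0.62). With atorvastatin Apoa1 correlated with Apoa5 (r 0.85, rho 0.73, permutation p 5.0e-05, adjusted p 9.0e-04), with Apom (r 0.82, rho 0.90) and with Apoa2 (r 0.81, rho 0.84), and Apoa5 correlated with Apob (r 0.79, rho 0.80). Gen#23 and Gen#25 were each the lowest of the atorvastatin group in 4 of the 9 genes, and Gen#30 was the highest in 4. Apoa4 passed only with Apoe (r 0.67, rho 0.64, permutation p 0.0038, adjusted p 0.015), and in no pair on chow or WTD. On chow Apob had negative r with Apoa2 (r -0.78, rho -0.72, adjusted p 0.025 and 0.064) and with Apoc3 (r -0.76, rho -0.67, adjusted p 0.04 and 0.092), which did not pass by rho. Whether the number of pairs differs between the groups was not tested. Without the libraries that lacked weak genes, 1 pair passed on chow (n=7), 2 on WTD (n=11) and 17 with atorvastatin (n=15), and Apoa2 with Apoc1 was the pair that remained on chow.

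**Figure D5:**
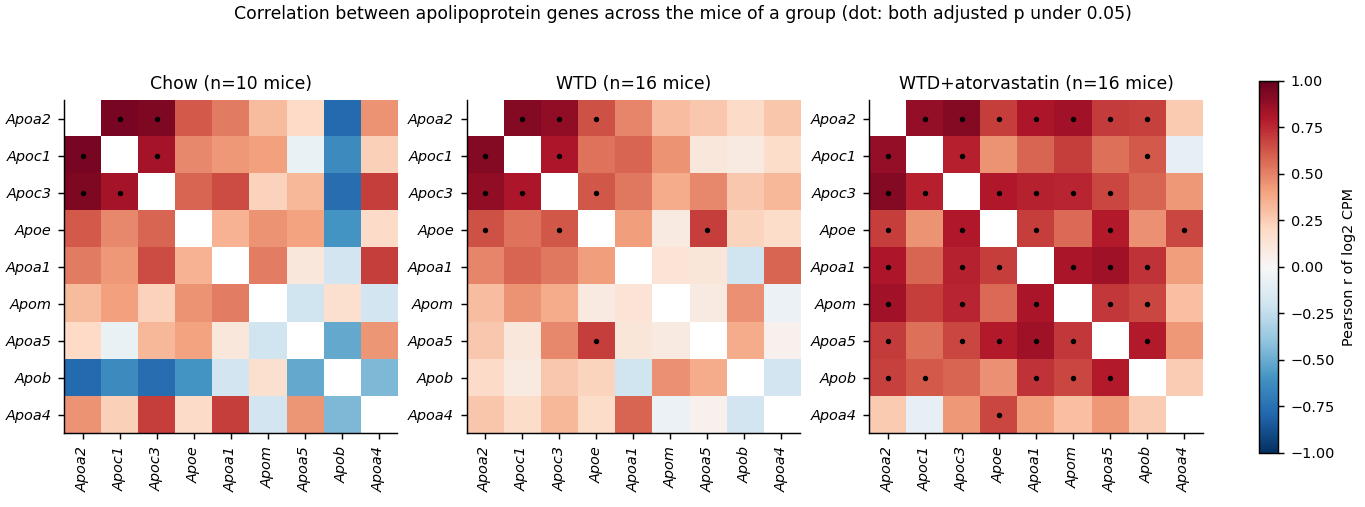
Pearson r of log2 CPM between the 9 apolipoprotein genes across the mice of each group, as a colour scale from -1 (blue) to 1 (red), with a dot where both adjusted p values were under 0.05. The block of Apoa2, Apoc1 and Apoc3 is marked in each group, and 22 of 36 pairs are marked with atorvastatin as compared to 6 on WTD.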

How the data were processed

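RNA sequencing counts of liver from 42 female APOE*3-Leiden mice were used. Per the submitters' processing notes, the authors used Trimmomatic, STAR 2.5 on GRCm38 and HTSeq 0.6.1p1, and the deposited values are raw counts of read pairs in each gene. Symbols, positions and exon lengths came from GENCODE vM21, which holds 54409 of the 54446 gene identifiers, and upstream sequences from RefSeq (GRCm38.p6). Weak genes were removed by filterByExpr (at least 10 counts in enough mice and 15 in total), TMM was used for scaling and genes were tested in 1 quasi-likelihood fit of all 42 mice and 3 groups (edgeR 4.0.16, R 4.3.3, robust estimation, no covariate), with Benjamini-Hochberg adjustment over 15574 genes and a threshold of 0.01. Log2 CPM used a prior count of 2. The authors used DESeq2, which was an alternative here (version 1.42.0). On simulated data, with changes of 1 (log2), 171 of 200 genes were called between WTD and chow and 189 of 200 between treatment and WTD, with 1 and 2 unchanged genes called. The simulation gave every gene the same spread and changed as many genes up as down, far fewer than passed in these data. It held no libraries that lacked weak genes. It checks the procedure in that setting alone and gives no error rate for these data.

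The members and gene lists were chosen with earlier results of these data known. The text names the 10 members, the 3 genes of each pathway list with the smallest p in the comparisons WTD versus chow and atorvastatin versus WTD, the 2 genes most like each member across mice, and annotated genes that overlap a member, apart from some not reported here. Alternatives were other scalings, filters, tools and thresholds, fits of the 2 groups compared, without robust estimation, without 9 libraries and without each mouse. Depth per mouse was 15661381 to 36224054 counts, so that counting error was small for the 9 genes tested. Each library is a separate mouse.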

Additional observations from a re-analysis of the deposited data

How the results depend on the processing

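Of 351 recomputed log2 fold changes of single genes, 317 kept their direction and their side of the threshold, 12 kept only their direction and lost the call, 5 gained it and 17 changed sign. The 42 fits without single mice entered this count only as the lowest and highest value per gene and comparison. Apoc3 with atorvastatin versus WTD lost its call in 20 of these 42 fits. A log2 fold change of 1 or more in size, required beside the test, left 4 members on WTD versus chow, 0 with atorvastatin versus WTD and 2 with atorvastatin versus chow. With atorvastatin versus WTD, 1 member passed with RLE or upper-quartile scaling, without a filter, with a minimum of 10 counts per mouse, with the 2 groups alone and with DESeq2, and 4 passed with limma-voom or at an adjusted p under 0.05. Leaving out each mouse in turn gave 1 to 4. Of all 15574 genes, 3118 passed with limma-voom, as compared to 1106 in the main fit. Its 4 members thus came with more calls among all genes. With RLE 1061 genes passed, and with upper-quartile scaling 1075. The counts over all genes at the other thresholds and without single mice are not given here. All sign changes with atorvastatin versus WTD were in genes that had not passed. Apoa1 had -0.01 with RLE, DESeq2 and at the lowest without 1 mouse, -0.005 with a minimum of 10 counts per mouse and -0.15 by total counts. Apoa4 had -0.02 with RLE, DESeq2 and a minimum of 10 counts per mouse, -0.004 with upper-quartile scaling, -0.16 by total counts, and -0.06 both without the 9 libraries and at the lowest without 1 mouse. By total counts Apoa2 had -0.02 and Apoc1 -0.11, and Apoe had 0.03 with limma-voom. Apob had 0.05 on WTD and 0.08 with atorvastatin versus chow by total counts. With a minimum of 10 counts per mouse, Apob did not pass on WTD (-0.21). The share of counts was 7.13% on chow, 6.16% on WTD and 5.69% with atorvastatin when 20 other abundant genes were left out of the total. Without the 9 libraries, 1 pair of genes on chow and 2 on WTD passed the test of correlation. Causes were not tested, and in the last of these the fewer mice and the choice of libraries left out cannot be told apart. No paired analysis was possible because no label ties a mouse of a group to a mouse of another. Chow-fed mice have a number series of their own (AZ#), both WTD-fed groups share another (Gen#), and no number within it occurs in both.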

Other observations

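For each member, the genes most like it were sought among 10931 genes with a mean of at least 100 counts, by Pearson's r of log2 CPM centred on each group over the 42 mice. This is a measure of likeness without a test, and the points share their libraries and depth. Apoa2 was most like Sod1 (0.91), which encodes a superoxide dismutase, and Mpc2 (0.89), a subunit of the mitochondrial pyruvate carrier. Apoc1 was most like Mpc2 (0.89) and Ndufb11 (0.88), and Apoc3 most like Ttr (0.86), the thyroid hormone carrier transthyretin, and Ndufa6 (0.85). Ndufb11 and Ndufa6 encode subunits of respiratory complex I. Apob was most like the coagulation genes F13b (0.88) and F5 (0.84). Apoa1 was most like Igfbp2 (0.82) and Ttr (0.79), Apoa5 most like Sec14l4 (0.83) and Hsd11b1 (0.82), and Apoe most like H2-Q10 (0.81) and Ptms (0.81). Apom was most like Serpina1a (0.77) and Dclk3 (0.72). Apoa4 had the lowest values, with Tymp (0.69, rho 0.54) and Fbxo6 (0.68, rho 0.59). Within single groups some values were lower on WTD. For Apoa1, r with Igfbp2 was 0.79 on chow, 0.47 on WTD and 0.90 with atorvastatin, and with Ttr 0.87, 0.37 and 0.91. For Apom with Serpina1a it was 0.81, 0.58 and 0.90, whereas Apoa2 with Sod1 had at least 0.86 in each group.

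Opposite-strand genes overlap Apoa4 and Apoa5 in the annotation. Over all mice Gm47528 had 54 counts, Gm10680 had 481 and Gm47544 had 1374, as compared to 698891 for Apoa4 and 1030479 for Apoa5.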
